A study of Homo sapiens with 24 samples.

Results

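The transcripts most abundant in control SKBR3 cells are described here from the 6 arrays whose source is labelled SKBR3 control, out of 24 arrays in the series. SKBR3 is a human breast cancer line of HER2-positive type: ERBB2, which encodes the growth factor receptor HER2, is amplified in its genome. The other arrays hold the same line with PMCA2, NHERF1 or HER2 knocked down, 6 arrays each, and are used only to choose 1 probe for each gene. The treatment protocol shared by all samples describes 48 h with lentiviral particles, and the control label does not say which particles, if any, those cells received. The cells came from ATCC and grew in DMEM with fetal bovine serum. RNA of the 6 control samples was read on Illumina arrays, 3 on each of 2 chips. No label says that the 6 came from separate cultures, so the spread between them may be technical.

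In a cell line that divides fast, much of the messenger RNA encodes ribosomes, the enzymes of energy metabolism and the cytoskeleton. A luminal breast cell adds simple-epithelium keratins, transcription factors such as FOXA1 and SPDEF, and proteins it secretes through the endoplasmic reticulum (ER) and Golgi. A HER2-positive tumour adds ERBB2 and some of the genes that lie next to it and are copied with it.

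Values are the deposited probe intensities, in arbitrary linear units with background left in. Of 20046 genes with a named probe, each is represented by the probe with the highest mean over the 24 arrays. The floor is an intensity of 106.4, below which 95% of the readings of 437 olfactory receptor probes fell, a gene family of the nose taken as silent here. On all 6 control arrays 9938 genes lay above it (49.6%), on some arrays 3249, and on none 6859. Just inside were EPG5, LMBR1L and ZNF346 with means of 108.5, 108.4 and 107.8, and just outside SNORA1, PRRT1 and REM2, each at 106.4. Brightness also depends on how well each probe binds, so genes are ranked from 1 (brightest) without ratios between them, and a percentile gives the share of genes that are dimmer. A probe at the floor does not show that a transcript is missing. RPL10 and PDIA3, which every cell is thought to use, stood at 96.2 ± 4.65 (SD, n = 6) and 95.9 ± 3.40 and never passed the floor. Among the 9938 genes the median coefficient of variation over the 6 arrays was 4.35%.

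The brightest genes were led by the machinery of translation, and their starts are shown because many share a feature. Messages of ribosomal proteins and elongation factors are known to begin with a C followed by an unbroken run of pyrimidines, the 5′ terminal oligopyrimidine tract, through which the kinase mTOR controls their translation. For a gene with several annotated starts, one with such a run was taken where there was one. Around that RefSeq start (assembly GRCh38.p14) the last 10 bases before it and the first 20 of the transcript read as follows. The run of C and T from the start is in capitals.
EEF1A1 (chr6:73521013-73521042, minus strand): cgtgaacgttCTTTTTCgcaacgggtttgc
RPS27 (chr1:153990752-153990781, plus strand): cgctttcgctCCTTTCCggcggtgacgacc
TPT1 (chr13:45341164-45341193, minus strand): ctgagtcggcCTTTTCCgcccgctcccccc
RPS25 (chr11:119018324-119018353, minus strand): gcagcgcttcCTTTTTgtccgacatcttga
RPL41 (chr12:56116623-56116652, plus strand): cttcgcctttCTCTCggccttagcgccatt
RPS12 (chr6:132814559-132814588, plus strand): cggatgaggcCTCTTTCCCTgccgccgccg
RPLP2 (chr11:809957-809986, plus strand): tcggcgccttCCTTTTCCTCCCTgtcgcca
RPS19 (chr19:41860245-41860274, plus strand): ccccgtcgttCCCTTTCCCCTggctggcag
RPS29 (chr14:49598691-49598720, minus strand): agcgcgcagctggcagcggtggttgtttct
RPL6 (chr12:112409266-112409295, minus strand): gacggcgcgtgcactgtgttcctggtcctg
RPS29 and RPL6, the last lines, have no such run at any annotated start, and neither do RPL19 and LAIR1, which are not printed. A run was counted where the first base is C and the next 4 are C or T, on the transcript strand alone, at any annotated start of the gene. It was found for 12 of the 16 genes with a start among the 20 brightest protein-coding genes, and for 35 of 85 among the 100 brightest (41.2%). Of protein-coding genes ranked 101 to 1000 it was found for 13.1%, of those above the floor on all control arrays for 7.65%, and of all with a probe for 6.35%. Over all 35116 annotated starts of the table the share was 4.07%. Ribosomal protein genes account for much of this, since 44 of 59 had the run, and without them it stood at 9 of 48 among the 100 brightest (18.8%). These shares describe annotated letters and were not tested.

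The top rank went to EEF1A1, the elongation factor that brings aminoacyl-tRNA to the ribosome, with a lowest, median and highest intensity of 19456, 19797 and 20592. RPL19, a protein of the large ribosomal subunit, followed with 18785, 19696 and 20094, and RPS27 of the small subunit with 18524, 19399 and 20278. Arrays of these genes overlapped, so the order of neighbours at the top is within their spread. TPT1, the translationally controlled tumour protein, came next at 19270 ± 676 followed by RPS25 at 19107 ± 553. RPL41, the shortest ribosomal protein, stood at 19035 ± 865, although another probe of the gene read 181. Of the 30 brightest genes 18 encode ribosomal proteins and 2, EEF1A1 and TPT1, are on the list of translation factors and related genes. Among the 100 brightest they were 40 and 5. The remaining places in the first 30 included ACTB, the actin of the cytoskeleton, at 17722 ± 650 and ATP5F1B, the catalytic subunit of mitochondrial ATP synthase, at 17325 ± 583. The 30th gene read 16289 ± 399, and the next, ATP5F1EP2, F2R and RPL30, read 15886 ± 719, 15812 ± 545 and 15558 ± 656.

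**Figure D1:**
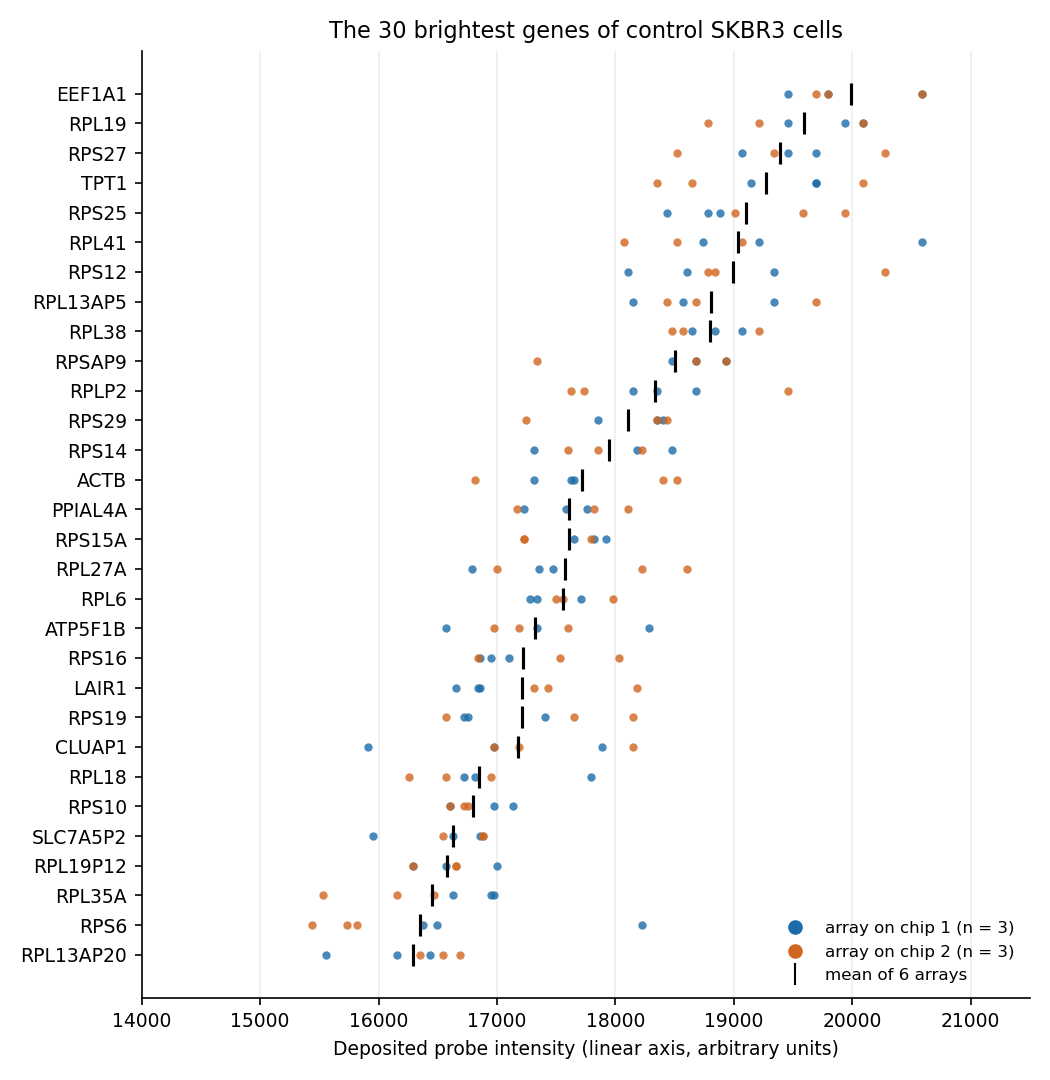
Deposited intensity (x axis, linear, arbitrary units) of the 30 brightest genes in control SKBR3 cells, 1 row per gene. Points are the 6 arrays, coloured by chip, and bars their mean. Means run from 19988 for EEF1A1 down to 16289 for RPL13AP20, and neighbouring genes overlap.

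Not every name among the brightest is safe. Pseudogene names were carried by 5 of the 30 (RPL13AP5, RPSAP9, SLC7A5P2, RPL19P12 and RPL13AP20), and whether these probes also bind the parent transcripts was not tested. SLC7A5P2 read 16625 ± 359 with 1 probe and 100.3 and 107 with its others, while SLC7A5, its parent gene, read 3073 ± 135. PPIAL4A, a copy of the cyclophilin gene PPIA, read 17611 ± 361, while the PPIA probe itself read 299 ± 15.1. LAIR1, an inhibitory receptor of immune cells, ranked 21 at 17215 ± 563, and its other probe lay at 104. CLUAP1, a protein of ciliary transport, ranked 23 at 17181 ± 793, with 4 other probes between 120 and 162. F2R, the thrombin receptor, read 97.1 with its other probe. For LAIR1, CLUAP1 and F2R 1 probe alone holds the rank. Across the array 3953 genes above the floor had several probes, and another probe had its mean above the floor in 2873 of them (72.7%). Of the 244 genes named, 18 read more than 3 times lower with the median of their probes. Besides CLUAP1, SLC7A5P2, ERBB2 and RARA these were ERBB3 at 199.6, EGFR at 141, SHC1 at 139, PPARG at 139.9, TFAP2A at 119, GRB7 at 596, FBLN1 at 528, CD44 at 147, ATF4 at 426, ARF1 at 553, RAB27B at 105, ALDOA at 2865, MCM7 at 404 and HOXC6 at 107. The median of 2 probes is their mean, so genes with 2 probes, such as LAIR1, F2R and RPL41, could not enter this count however far their probes differed.

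As a list, 68 of 69 ribosomal protein genes with a probe were above the floor on every control array, and their median percentile was 99.7. All 24 genes on the list of translation factors and related genes passed, with a median percentile of 98.8. NACA, which guides nascent chains, read 12555, EIF4A1, the helicase of translation initiation, 12277, and EEF1G 11442. The other EIF4A1 probe read 1838. At the low end were EIF4EBP1, a repressor of EIF4E, at 141 and EIF4E, the cap-binding protein, at 129. The share for all genes was 49.6%.

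Of 11 luminal epithelial markers 9 were above the floor on all control arrays (FOXA1, SPDEF, KRT8, KRT18, KRT19, EPCAM, MUC1, CLDN3 and CLDN4), while CDH1 and GATA3 were not. KRT19, a keratin of simple epithelia, read 12806, 13674 and 13992 (lowest, median and highest array) and ranked 58. KRT8 read 5503 ± 292 and KRT7 2955 ± 175. KRT18, the usual partner of KRT8, read only 325 ± 20.9. Every array of these keratins stood clear of the floor. CD24, a mucin-like surface protein, ranked 72 at 12581 ± 317, with its other probe at 1827. MAL2, a protein of apical transport, reached 6949 ± 252. MUC1, an apical mucin, read 824, 889 and 1010.2, and its further probes 335 and 123. EPCAM, the epithelial adhesion molecule, read 4595, 5084 and 5632, and its further probes 2984 and 363. Claudins of the tight junction spread from CLDN7 at 2492 ± 95.4 to CLDN3 at 729 ± 36.4 and CLDN4 at 147 ± 7.32. Of 27 genes of this list with a probe 24 passed on all arrays. CDH1, the gene of E-cadherin, lay at the floor on all of them (95.2 ± 2.00), as did OCLN (94.0 ± 2.86). SKBR3 is known to have lost E-cadherin.

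Among luminal transcription factors XBP1, which drives the secretory apparatus, was the brightest at 7814, 8150 and 8880. FOXA1, the pioneer factor of luminal cells, read 2499, 2677 and 2910. TFAP2C, an AP-2 factor known to bind the ERBB2 promoter, read 2500 ± 128, and its relative TFAP2A 821 ± 34.1. ELF3 read 1458 ± 27.8, SPDEF, a factor of secretory epithelia, 1224 ± 31.8 and ZNF217, an oncogene of chromosome band 20q13, 1196 ± 60.5. These factors were above the floor on every array. GATA3 was not: its single probe read 105 ± 4.82 and passed on 2 of 6 arrays. In all, 17 of 20 factors passed on every array, with a median percentile of 75.7.

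Receptors for steroid hormones were dim. ESR1, the oestrogen receptor, passed the floor on 2 of 6 arrays at 103 ± 5.25, and PGR, the progesterone receptor, on none at 98.3 ± 2.30. SKBR3 is known as a line without either receptor. The retinoic acid receptor RARA was the brightest of the receptors at 1616, 1745 and 1973, followed by NR2F6, an orphan receptor, at 1312 ± 80.4 and by RXRA, the partner of RARA, at 936 ± 51.2. Other probes of RARA read 108 and 96.3. With the median probe of each gene RARA read 108, below NR2F6, RXRA, VDR, PRLR, PPARG, THRA and RARG. PPARG, which governs fat storage, read 441 ± 5.13, VDR 252, PRLR, the prolactin receptor, 179 ± 10.7, THRA 146, and NR3C1 and RARG 118 each. ESR2 passed on no array at 98.7 and THRB on 1 at 103. Of 13 receptors with a probe 9 passed on all arrays (69.2%, beside 49.6% of all genes).

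Most mesenchymal, fibroblast, immune and endothelial markers did not pass the floor on all arrays, while basal markers passed about as often as all genes. KRT5 and KRT14, keratins of basal cells, read 96.6 ± 2.65 and 95.9 ± 4.56 and passed on no array. ACTA2, another basal marker, read 203 ± 10.8 and passed on all 6. Of 15 basal markers with a probe 8 passed on all arrays (53.3%, beside 49.6% of all genes), led by EGFR at 574 ± 23.8 and CAV1 at 338 ± 11.9, and the list's median percentile was 51.6. Of 16 mesenchymal markers 3 passed: S100A4 at 12966 ± 277, CD44 at 520 ± 25.9 and VIM at 172 ± 11. Of 14 fibroblast markers 2 passed, FBLN1, a matrix protein, at 2497 ± 114 and BGN at 166, while COL1A1, DCN and LUM stayed near the floor. Of 15 immune markers 4 passed: CSF1R at 906 ± 62.8, CD68 at 246, CD14 at 113 and LYZ at 112. PTPRC, carried by all white blood cells, passed on 1 of 6 arrays at 99.6 ± 4.95, and CD3D and TYROBP on none. Of 10 endothelial markers 4 passed, ESAM at 247, ENG at 229, CDH5 at 180 and VWF at 135, and PECAM1 and KDR passed on 1 array each. Median percentiles of the mesenchymal, fibroblast, immune and endothelial lists were 28.7, 27.3, 36.4 and 33.9. In bulk RNA, few cells with much of a transcript and many cells with little cannot be told apart.

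**Figure D2:**
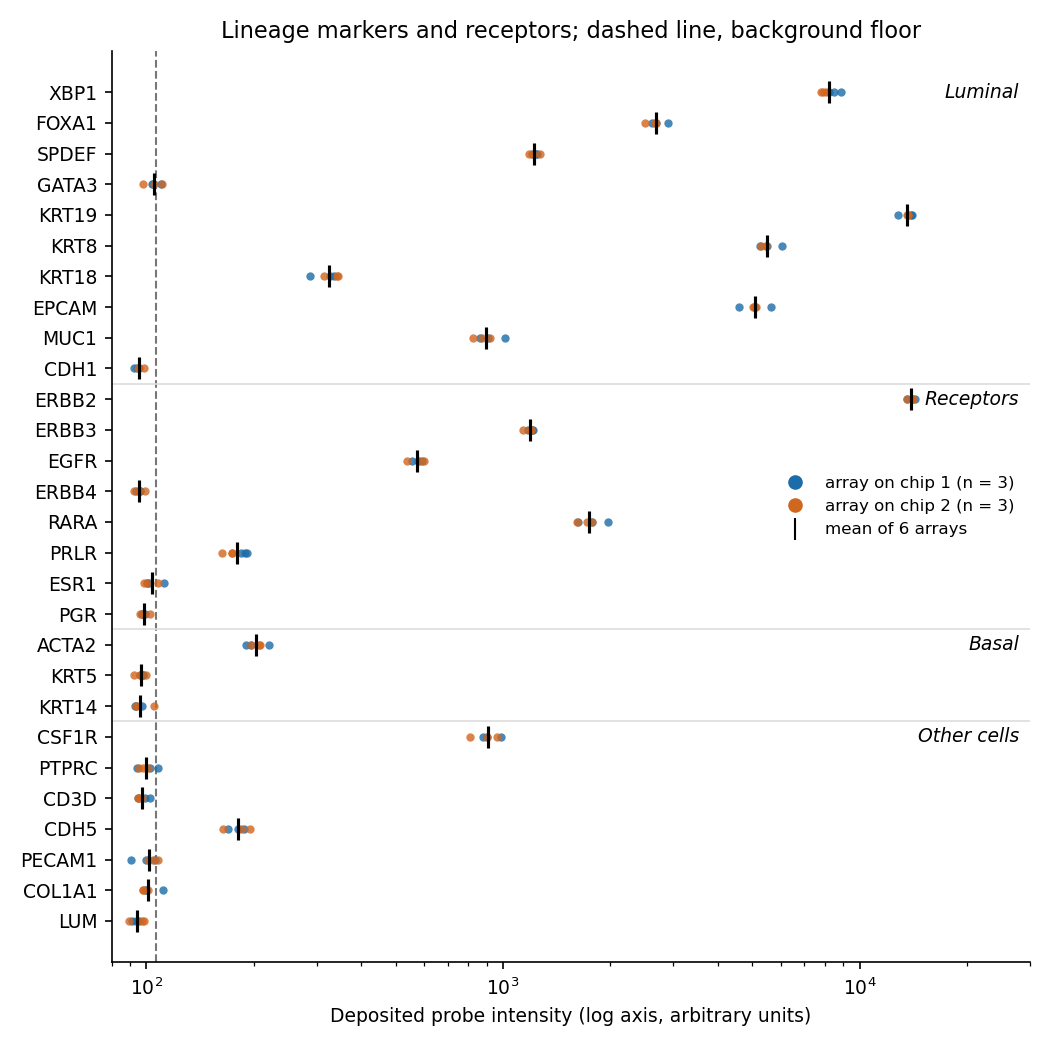
Deposited intensity (x axis, log scale, arbitrary units) of lineage markers and receptors in control SKBR3 cells. Points are the 6 arrays coloured by chip, bars their mean, and the dashed line the floor of 106.4. ERBB2, KRT19, XBP1, KRT8 and EPCAM lie farthest to the right. The groups overlap: CSF1R at 906 lies right of MUC1 at 898, and EGFR at 574 right of KRT18 at 325. The means of GATA3, CDH1, ERBB4, ESR1, PGR, KRT5, KRT14, PTPRC, CD3D, PECAM1, COL1A1 and LUM lie below the floor.

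ERBB2 itself ranked 49 of 20046 genes, with a lowest, median and highest intensity of 13581, 14061 and 14344. All 6 arrays lay close together, with a coefficient of variation of 2.21%. A further ERBB2 probe read 165 and the last one 101, so the rank rests on 1 probe. ERBB3, the partner that lacks strong kinase activity, read 1134, 1195 and 1210 and EGFR 537, 578 and 601, while ERBB4 stayed at the floor at 95.3 ± 2.48. Of the adaptors SHC1 read 1389 and GRB2 428, and ERRFI1, a feedback inhibitor of the family, read 649. Ligands were dim. EGF read 158 ± 5.21 and HBEGF 138 ± 7.98 on all arrays above the floor, while TGFA, EREG, BTC and NRG1 to NRG4 passed on no more than 1 array each and read 99.1 to 104. MUC4, a mucin that binds HER2, read 112, and its further probes 102, 98.9 and 95.3. In all, 9 of 17 genes with a probe on the list of these receptors, ligands and partners passed on every array (52.9%). That is near the 49.6% of all genes.

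The other targets of the series were measured too. NHERF1, a scaffold with PDZ domains that anchors membrane proteins, read 3844, 4021 and 4188 and ranked 341. ATP2B2, the gene of the calcium pump PMCA2, passed the floor on no control array with any of its 3 probes, the brightest at 98.9 ± 3.56. Related pumps were dim as well, ATP2B4 at 228 ± 14.2 and ATP2B1 at 115 ± 4.11, both on all arrays above the floor.

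Genes next to ERBB2 were often bright. Of the 40 protein-coding genes within 20 places of it on chromosome 17, 39 had a probe and 28 were above the floor on all arrays (71.8%), with a median percentile of 70.0. Among the 20 nearest, 15 passed. For all protein-coding genes the share was 53.6% and the median percentile 54.0. Farther out the sides differed: 9 of 13 passed (69.2%) among genes 21 to 40 places upstream, but 4 of 19 (21.1%) downstream, where a cluster of keratin genes begins. No test was made of these shares.

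Around ERBB2 the level varied from gene to gene. Copy number was not measured, so which of these genes are amplified in these cells was not tested. GSDMB, a gasdermin that lies 5 genes from ERBB2, read 8212, 8516 and 9558, the brightest after ERBB2 within 10 genes of it. GRB7, an adaptor that binds HER2, read 1707, 1842 and 1874, and PGAP3, an enzyme of lipid anchors next to ERBB2, 1772 ± 87.0. MED1, a Mediator subunit, read 1864 ± 74.0, CDK12, a kinase of transcription elongation, 1365 ± 66.4, FBXL20 1190 and STARD3, a cholesterol transporter, 971 ± 41.7. ORMDL3 read 618, MIEN1 487 ± 31.9 and PPP1R1B 323 ± 13.7. NEUROD2, PNMT, ZPBP2, LRRC3C, CSF3 and NR1D1, all within 13 genes of ERBB2, read 96.1 to 104 and passed on no more than 1 array each. NEUROD2 is a factor of neurons, PNMT makes adrenaline and CSF3 is a growth factor of granulocytes. TCAP, a muscle protein, GSDMA, a gasdermin of skin, and IKZF3, a factor of lymphocytes, read 138, 136 and 122. On the side away from GSDMB, RPL19 lies 11 genes from ERBB2, and LASP1, an actin-binding protein, lies 17 genes from it at 2172. On the GSDMB side PSMD3, a proteasome subunit, read 973, MED24 968 and CASC3, of the exon junction complex, 1605. RARA, given above among the receptors, lies 19 genes from ERBB2 on that side. Further on, 21 genes away, TOP2A, the topoisomerase of dividing cells, read 4056 ± 105, while its neighbour IGFBP4 lay at the floor (95.4 ± 2.84). Of the 33 genes listed for this region 26 passed on all arrays (78.8%, beside 49.6% of all genes). Their median percentile was 83.8, and 75.9 with the median probe of each gene.

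**Figure D3:**
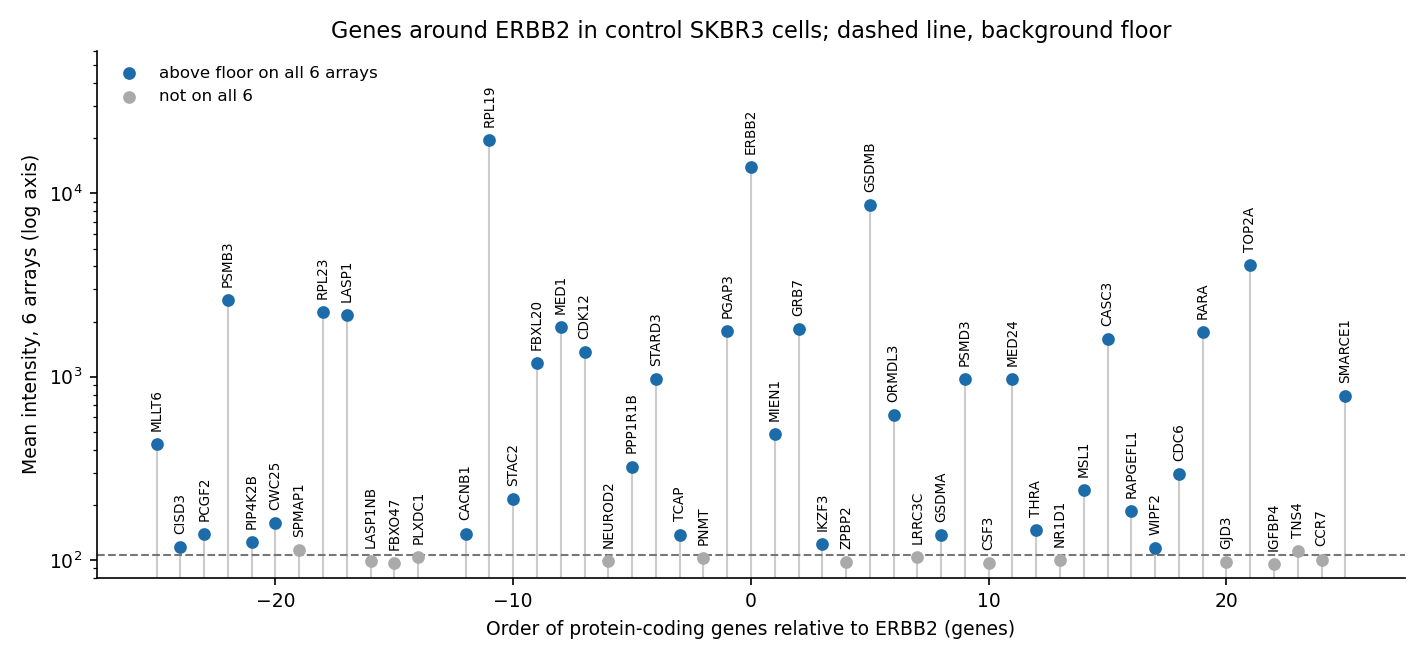
Mean intensity over the 6 control arrays (y axis, log scale, arbitrary units) of protein-coding genes in their order around ERBB2 (x axis, number of genes from ERBB2). Blue genes were above the floor (dashed line) on all 6 arrays and grey genes were not. RPL19, ERBB2 and GSDMB tower over genes such as NEUROD2, PNMT and ZPBP2, which sit at the floor between them.

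Of 38 genes of secreted and surface products of luminal cells 23 passed on all arrays (60.5%, beside 49.6% of all genes), with a median percentile of 60.7. IGFBP5, which binds insulin-like growth factors, was the brightest at 3935, 4260 and 4602. VTCN1, an immune checkpoint protein of the surface, read 2522 ± 47.2. SCGB2A2, the gene of mammaglobin, read 1814, 1930 and 2082, AGR2, an ER disulfide isomerase needed for mucins, 1895 ± 75.9, ORM1, an acute phase glycoprotein, 1477 ± 103, and MUCL1, a small breast mucin, 1030 ± 26.4. APOD read 611, AZGP1, a zinc-binding glycoprotein, 352 ± 16 and PIP, the prolactin-inducible protein, 164 ± 5.56. Milk protein genes lay at the floor, with LALBA at 100.3 ± 4.24, CSN1S1 at 98.7, CSN2 at 95.2 ± 1.62 and CSN3 at 92.7. A further AGR2 probe read 242.

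All 34 genes of ER translocation and glycosylation with a probe passed, with a median percentile of 96.0. DAD1, a subunit of the oligosaccharyltransferase, read 6821, 7165 and 7814. TRAM1, at the translocon, read 5404 ± 288, SRP14, of the signal recognition particle, 5209 ± 120, SEC61B, of the channel itself, 4425 ± 211 and OST4 4393 ± 218. At the low end were SEC62 at 164 and SSR3 at 156. Among folding genes 26 of 28 passed. P4HB, protein disulfide isomerase, read 4750 ± 287 and HSP90B1, the ER form of HSP90, 4565 ± 128, while HSPA5, the chaperone BiP, read 360 ± 29.0 with its single probe. ATF4, a factor of the stress response, read 5053 ± 253.

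Vesicle genes passed in 35 of 36 cases, at a median percentile of 82.5. ARF1, a small GTPase of Golgi coats, read 4467 ± 124 and COPA, a coat subunit, 2372. MLPH, melanophilin, which links RAB27 vesicles to myosin, read 2161, 2270 and 2372, and MYO5C, a myosin of secretory epithelia, 901 ± 45.9. RAB27B read 457 ± 37.7 and the effector SYTL4 405 ± 20.4. RAB27A was near the floor at 113 ± 7.11, above it on 5 of 6 arrays. Enzymes that make hexosamines and mucin-type glycans passed in 12 of 14 cases at a median percentile of 74.8, led by GFPT1, the entry enzyme of the hexosamine pathway, at 551.

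All 38 subunits of oxidative phosphorylation with a probe passed, with a median percentile of 98.7. COX7C of cytochrome oxidase read 13443, 13567 and 14754, NDUFB9 of complex I 11524 ± 499 and UQCRH of complex III 10859. With the median of its probes UQCRH read 5658. All 20 genes of the TCA cycle passed at a median percentile of 90.9, led by MDH2, malate dehydrogenase, at 14243, 15040 and 15731, with CS, citrate synthase, at 3980 ± 124. For glycolysis 19 of 21 passed at 93.6. GAPDH read 15441 ± 494, LDHA, which makes lactate, 13945 ± 479, ENO1 11783 ± 628 and ALDOA 10690 ± 494. SLC2A1, the glucose transporter of growing cells, read 1796, 1812 and 2078. SLC2A3, the transporter of neurons, read 110 ± 3.56, and ENO2, the enolase of neurons, 94.3.

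Lipid synthesis was marked by FASN, the fatty acid synthase, which ranked 101 at 9072, 10929 and 11343. Replicates 1 and 4 were the low ones, and its coefficient of variation was 8.66%. SCD, which desaturates fatty acids, read 2634 ± 92.1, ACLY, which supplies acetyl-CoA from citrate, 2567 ± 117, and ACSS2, which makes it from acetate, 1706 ± 76.2. SREBF1, their transcription factor, read 841. FADS1 and FADS2, desaturases of long-chain fatty acids, lay at the floor (94.9 ± 3.68 and 99.9 ± 3.08), as did FABP4, a carrier of fat cells. Of 32 genes of this list 23 passed. All 20 cholesterol synthesis genes passed at a median percentile of 82.4, with SQLE, squalene epoxidase, at 1712 ± 91.9 and HMGCS1 at 522 ± 21.2.

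Genes against oxidants passed in 31 of 33 cases, at a median percentile of 92.9. TXN, thioredoxin, read 12552 ± 714 and PRDX1, a peroxiredoxin, 9972 ± 556. NQO1, a quinone reductase under NRF2, read 2960, 3155 and 3488, and GPX2, a glutathione peroxidase of epithelia, 1526 ± 32.0. The other NQO1 probe read 112. SLC7A11, the cystine importer, read 103 and passed on 2 of 6 arrays, and GSTP1 read 178.

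Amino acid genes passed in 24 of 25 cases. SLC7A5 and SLC3A2, the 2 chains of a large amino acid transporter, read 3073 ± 135 and 2517, and PHGDH, the first enzyme of serine synthesis, 893 ± 17.1. CPS1, the mitochondrial enzyme that makes carbamoyl phosphate and is typical of liver, read 3042, 3090 and 3312, and ASS1, which joins citrulline to aspartate, 4785 ± 275. ASL read 166 ± 4.69, ARG2 passed on 4 of 6 arrays at 106, and OTC and ARG1 passed on none (97.5 ± 3.64 and 98.0 ± 4.23). CPS1 and ASS1 stood far above the floor on every array, and OTC, the enzyme between them in the cycle, did not pass it. Of 10 genes of the urea cycle list 6 passed on all arrays (60.0%, beside 49.6% of all genes). TFRC, the transferrin receptor that brings in iron, read 8850 ± 362, and the metallothioneins MT2A and MT1X 1499 ± 77.4 and 1382 ± 70.0, with MT1H and MT1M at the floor. Of 12 iron and metal genes with a probe 10 passed on all arrays.

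All 20 chaperone genes passed at a median percentile of 97.8, with HSPB1 at 12750 ± 509 and HSP90AA1, on which HER2 is known to depend, at 12357. All 22 actin and tubulin genes passed at 98.7, among them TMSB10 at 14263, ACTG1 at 13909 and EZR, ezrin, which binds NHERF1, at 7846. Of 31 cell cycle genes 30 passed at 89.8, with CCND1, cyclin D1, at 4311 ± 195, MCM7 at 4049 and UBE2C at 3356, while CCNE2 read 93.3. With the median of their probes MCM7 read 404 and UBE2C 1787. Of 23 interferon-stimulated genes 11 passed (47.8%) at 50.5, beside 49.6% of all genes. IFITM2 read 1309 and IFI6 720, whereas IFIT1, IFIT3 and MX2 passed on no array.

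**Figure D4:**
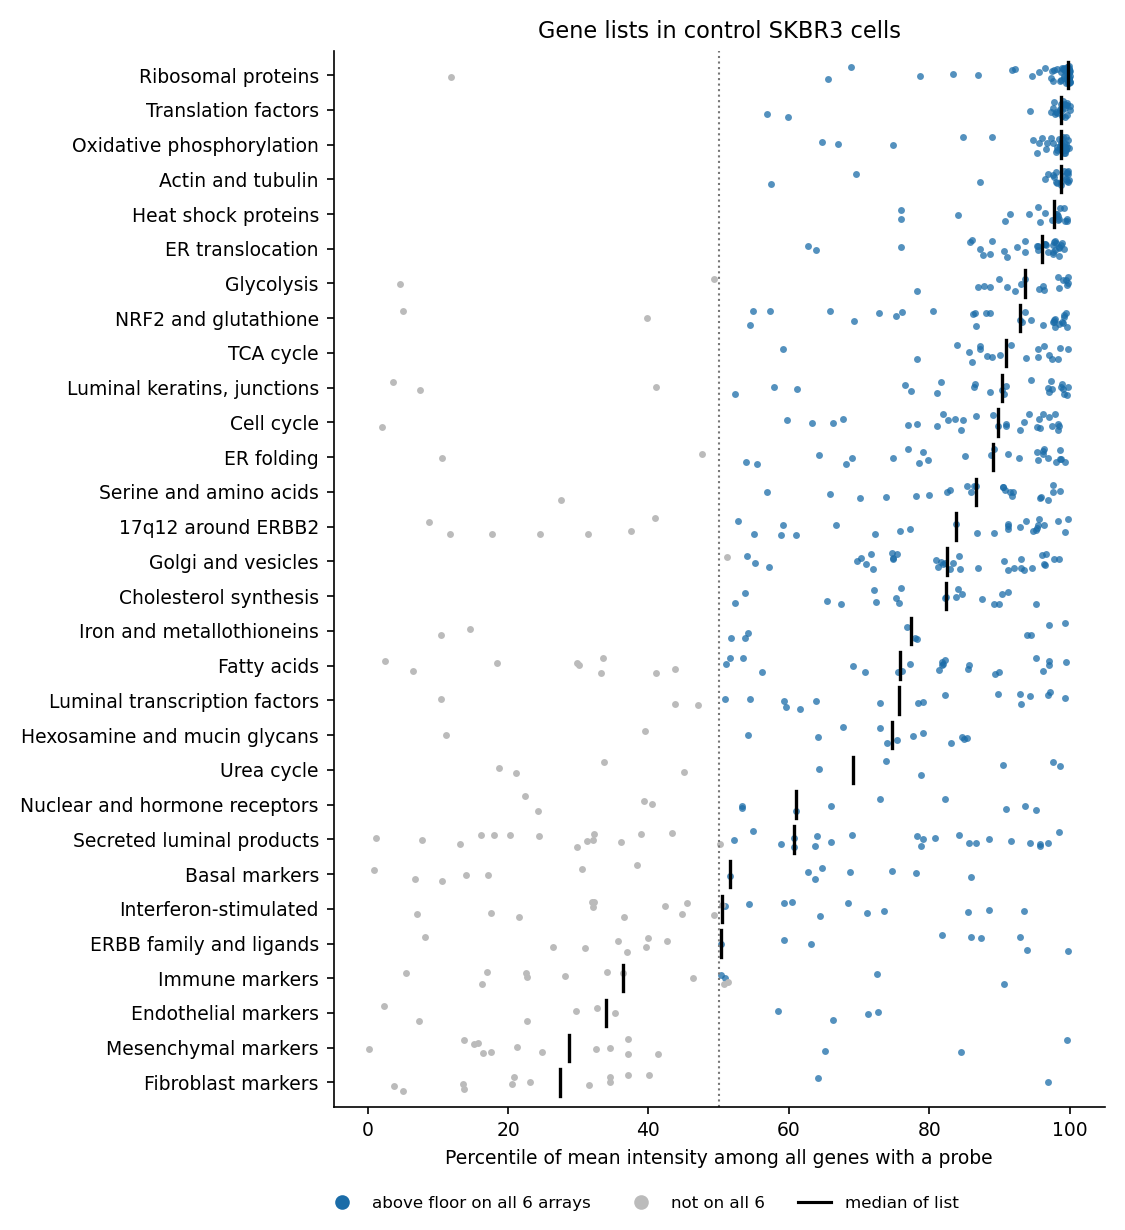
Percentile of mean intensity among all genes (x axis) for each member of the gene lists, 1 row per list. Blue members were above the floor on all 6 arrays, grey ones were not, and black bars mark list medians. Ribosomal proteins (99.7) head the rows and fibroblast markers (27.3) close them.

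The labels split the control arrays in 1 way only, by chip, and the baseline was compared over it. The 3 arrays of chip 1 and the 3 of chip 2 gave no gene a different level by limma at an adjusted p under 0.05, 0 of 11084 genes tested (0%). At an unadjusted p under 0.05 there were 644 (5.81%), and the smallest adjusted p was 0.438. The median difference was 0.00 in log2 of the background-corrected intensity and the median standard error (SE) 0.08. Quantile normalization had given all arrays one distribution before the fit, so a median difference near 0 was largely set in advance. ERBB2 differed by -0.01 (SE 0.06, limma adjusted p = 0.991), FASN by 0.03 (SE 0.10, limma adjusted p = 0.982) and XBP1 by -0.11 (SE 0.06, limma adjusted p = 0.908). Among the 30 brightest genes the difference ran from -0.12 to 0.07. A p over the threshold does not show that the chips are alike. Correlations of log2 intensity across genes were 0.998 for each of the 6 pairs within a chip and the 9 pairs between chips, and genes are not independent points.

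**Figure D5:**
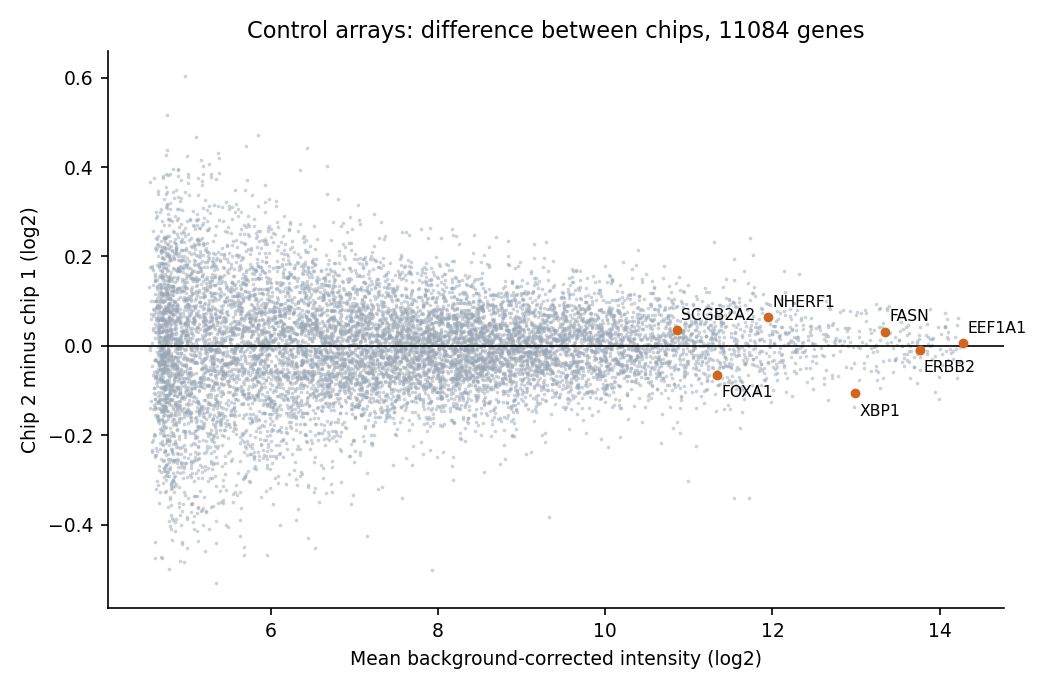
Difference between chip 2 and chip 1 (y axis, log2) against the mean background-corrected intensity (x axis, log2) for 11084 genes of the control arrays. Grey points are genes and orange points named ones. Differences scatter around 0, within -0.53 and 0.60.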

How the data were processed

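The deposited values are intensities per probe and array that the authors had already normalized; neither method nor software is given in the sources used here. At every rank the 24 arrays hold nearly one value (largest gap 0.406%), the pattern of quantile normalization. A second table of 24 signal columns was not used, because their names match no label. Probes were named through the platform annotation and RefSeq (GRCh38.p14): of 47323 probes 30113 had 1 symbol (30074 matched), 8 several and 17202 none listed.

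Each gene took the probe with the highest mean over the 24 arrays. For the chip comparison, normexp against the olfactory receptor probes (offset 16), quantile normalization and log2 were followed by limma 3.58.1 in R 4.3.3 (two-sided, Benjamini-Hochberg) on genes above the floor on at least 3 control arrays. The fit was tested on simulated data. The 6 arrays set the precision. Alternatives were another floor, probe rule, background, summary and variance model, each chip alone, and leaving out each replicate.

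Named genes are the 30 brightest and the next 3, up to 8 brightest and 4 dimmest members of each list, the ERBB, receptor, target and 17q12 genes, those around the floor, and marker genes. The members, lists and rule were chosen with earlier results of these data known. AZGP1, CLDN7, CSN1S1, EZR, FABP4, GPX2, GSTP1, HSPA5, IFIT1, LALBA, MYO5C, NQO1, PHGDH, PIP, RAB27B, SLC2A1 and SYTL4 fall outside the rule and were chosen after their values were seen.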

Additional observations from a re-analysis of the deposited data

Results flagged for a closer look

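For 20 of the 244 genes named, 1 of the 6 control arrays stood apart by Dixon's test at the 95% level, which chance does for about 1 group in 20. In replicate 2 KRT8 read 6063 against 5246 to 5495 on the others, MYO5C 991 against 860 to 896, GRB7 1707 against 1812 to 1874, UBE2C 3011 against 3342 to 3500 and SLC7A5P2 15953 against 16545 to 16882. In replicate 3 KRT19 read 12806 against 13552 to 13992. In replicate 5 MIEN1 read 548 against 459 to 488 and PIP 175 against 160.2 to 165. In replicate 4 NACA read 13224 against 12340.1 to 12567. In replicate 1 IFITM2 read 1215 against 1317 to 1347, and in replicate 6 RPSAP9 read 17336 against 18475 to 18934. In replicate 3 S100A8 read 5508 against 4617 to 4942.

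The remaining genes lay at or near the floor of 106.4. COL1A1 (111) and EREG (112) were high in replicate 2, KRT14 (105) and LMBR1L (114) in replicate 4 and ZNF346 (110.3) in replicate 1. ARG2 (99.6) was low in replicate 1, and ESR2 (89.5) and PDIA3 (89.4) in replicate 5.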

How the results depend on the processing

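The number of genes above the floor on all control arrays was 9938, and 9079 with the floor at the 99th percentile of the olfactory receptor probes, 13187 when 1 array sufficed, 9341 with the median probe of each gene, and 9978 to 10027 with 1 replicate left out. When 1 array sufficed, mesenchymal markers above the floor went from 3 to 7, immune markers from 4 to 8, fibroblast markers from 2 to 5 and interferon-stimulated genes from 11 to 18. Immune markers came to 2 with the higher floor and to 2 with the median probe. Of the 30 brightest genes all 30 stayed after background correction, with the median over arrays and without any 1 replicate, and 29 on either chip alone. With the median probe 20 stayed, and TPT1, RPL41, RPSAP9, PPIAL4A, RPS15A, LAIR1, CLUAP1, SLC7A5P2, RPL19P12 and RPS6 left. Background correction takes off the background left in the deposited values, and it moved 143 of 244 named genes by more than their SD. The median probe moved 91. The other alternatives moved none, but that outcome was fixed in advance. The median over the same 6 arrays, the mean of 1 chip or the mean without 1 replicate cannot shift by more than this SD. With the median probe ERBB2 read 165. The chip comparison called 0 genes by limma under every alternative, with 583 to 749 at an unadjusted p under 0.05 without 1 replicate and 1079 of 20046 without the filter on dim probes. No paired analysis was possible because the labels number the control arrays of chip 1 as replicates 1 to 3 and those of chip 2 as 4 to 6. Signal over background limits what can be said of genes near the floor.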

Other observations

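Outside the lists, genes and families chosen after their values were seen gave a few further readings of the 6 control arrays. Of 19 genes of the S100 family, small calcium-binding proteins, 13 were above the floor on all arrays (68.4%, beside 49.6% of all genes). S100A6 read 10723 ± 698 (SD, n = 6), S100A9 9054 ± 350, S100A10 8961 ± 463, S100P 6446 ± 160 and S100A8 4912 ± 325, each with all arrays far above the floor. S100A8 and S100A9 form calprotectin, best known from neutrophils. Of 15 immune markers 4 passed on all arrays, CSF1R at 906, CD68 at 246, CD14 at 113 and LYZ at 112, and PTPRC passed on 1 array, and their part in these values was not tested.

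SUSD2, a membrane protein, read 9358 ± 459, DHRS2, a short-chain dehydrogenase, 8189 ± 631 and H19, an imprinted noncoding RNA, 7865 ± 165. IL18, a cytokine, read 4081 ± 179. Some genes usually limited to the testis were above the floor on all arrays. CTAG2 read 3648 ± 232, with its other probe at 212, MAGEA6 836 ± 49.2 and MAGEC2 690 ± 38.3. Of 13 MAGE-A and MAGE-C genes 7 passed (53.8%), close to the 49.6% of all genes, and of 12 GAGE genes 9, whose near-identical copies their probes may not tell apart. Of 29 HOX genes 7 passed (24.1%), led by HOXC13 at 813 ± 45.2 and HOXC6 at 422 ± 16.3. All 76 mitochondrial ribosomal protein genes passed, with a median percentile of 91.9.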
